A study of Homo sapiens with 6 samples.

Results

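The genes described here are 44 coding genes of DNA replication and DNA repair, taken by RefSeq symbol from the 20056 coding genes of the GRCh38 annotation. Their N6-methyladenosine (m6A) peaks were read in cells of the human glioblastoma line U-251 MG under a hairpin against TRA2A (shTRA2A), a hairpin against METTL3 (shMETTL3) and a control hairpin (shNC). TRA2A is an SR-like splicing regulator, and METTL3 is the methyltransferase that writes m6A. Each of the 3 hairpins had 1 immunoprecipitated library, made with an antibody against m6A, and 1 input library, so each is represented by 1 list of peaks. There is therefore no replicate check and no test between hairpins. The sources used here do not say how the cells were infected or selected, or whether the lines were clones.

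Cells that divide copy their genome once per cycle. Origin recognition and licensing factors (ORC1, ORC2, CDC6, CDT1) load the MCM helicase, and polymerases such as POLE then extend the new strands. Checkpoint proteins around ATR, TOPBP1, CLSPN and TIMELESS watch over stalled forks, while ATM and the MRE11-RAD50-NBN complex respond to broken ends. Breaks and crosslinks are mended by homologous recombination (BRCA1, BRCA2, PALB2) and the Fanconi anaemia pathway, and mispaired bases by MSH3 and MSH6. In messenger RNA, m6A is known to be frequent near stop codons and in long internal exons, in a sequence context with the core GGAC. Several large repair genes, BRCA1 and BRCA2 among them, are known for a very long internal exon.

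The shTRA2A list held 2736 peaks, the shMETTL3 list 5433 and the shNC list 9206. Column 5 of each list is the authors' peak score, on an unstated scale, and it was used to rank peaks within a list only (rank 1 is the highest score). Peak lists carry no transcript levels, so a missing peak, a scarcer transcript and fewer cells that express it cannot be told apart. They also do not show how far a hairpin reduced its target: TRA2A had 1, 0 and 0 peaks in shTRA2A, shMETTL3 and shNC, and METTL3 had none. Of 8 glial and glioma markers 4, 4 and 5 had a peak in those lists, whereas none of 8 blood and endothelial or 4 neuronal markers had any.

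A peak was given to the gene whose body it touches. The 44 genes carried m6A peaks more often than all coding genes, but they were chosen with earlier results of these data known. Of 171 further replication and repair genes, 32.7% had a control peak. The peak lists do not show which coding genes are expressed in these cells. In shTRA2A 11 of the 44 genes had a peak (25%), against 8.86% of all coding genes. In shMETTL3 22 had one (50%), against 15.6%, and in shNC 26 (59.1%), against 19.9%. The numbers of peaks were 16, 37 and 67. RIF1, CLSPN, BRCA2, PALB2, REV3L and SMC6 had the most control peaks, with 8, 6, 5, 4, 4 and 4. The genes were long, with a median body of 65982 nt, against 24093 nt for all coding genes. Over all coding genes, longer bodies more often held a peak. Among bodies over 75 kb, 14 of 20 replication and repair genes had a control peak (70.0%), against 31% of all 4438 coding genes of that length. From 25 to 75 kb it was 8 of 17 (47.1%), against 24.4%, and under 25 kb 4 of 7, against 12.8%. The share of the replication and repair genes thus did not rise steadily with length.

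**Figure D1:**
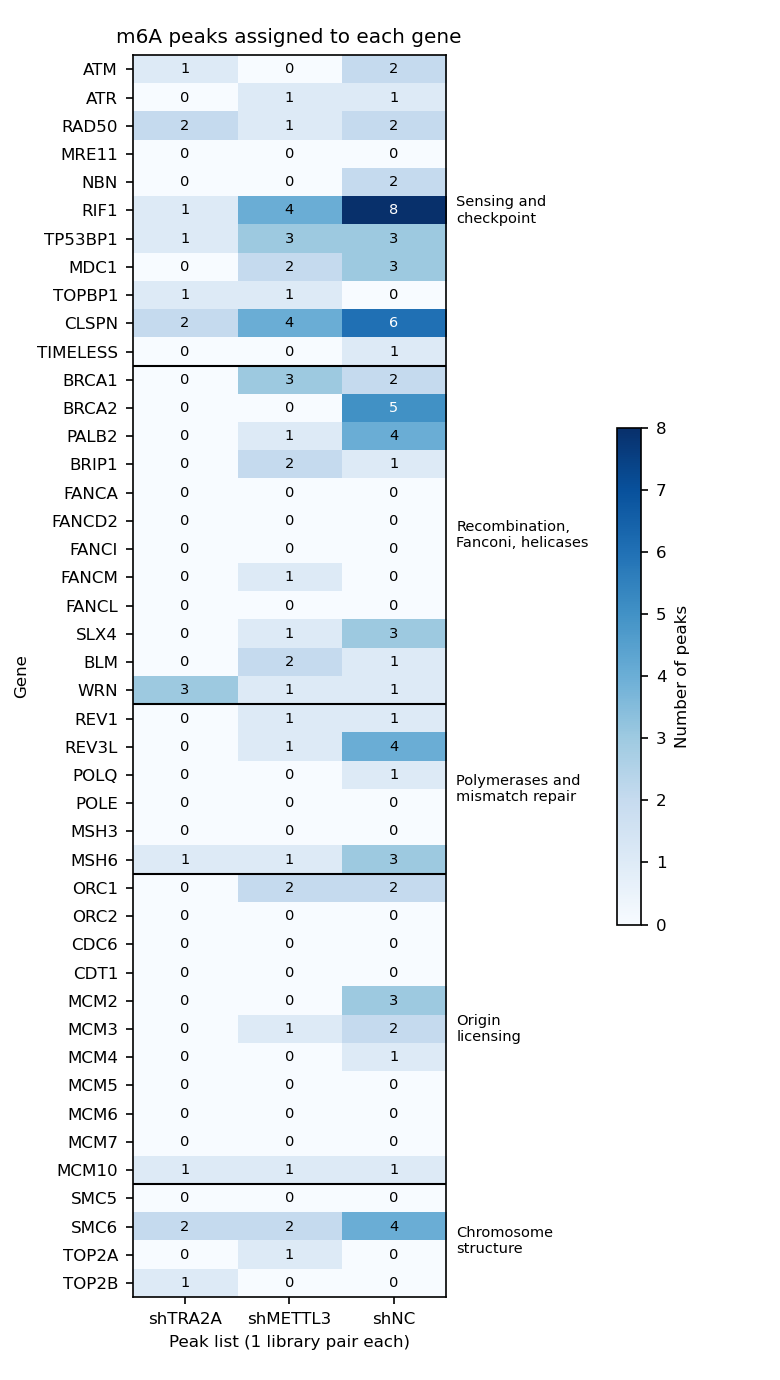
Number of peaks assigned to each of the 44 genes (rows, in 5 role groups) in the shTRA2A, shMETTL3 and shNC lists (columns); darker cells hold more peaks. RIF1 has the most control peaks, 8, and 14 genes have none in any list.

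No peak in any list was given to 14 of the 44 genes, against 71.9% of all coding genes. They are MRE11, the nuclease of the break-sensing complex, FANCA, FANCD2, FANCI and FANCL of the Fanconi anaemia pathway, POLE, the leading-strand polymerase, MSH3, ORC2, CDC6, CDT1, MCM5, MCM6, MCM7 and SMC5. Of the 11 origin licensing genes 6 were among them, a smaller share than the 71.9% of all coding genes. Bodies of FANCA, FANCI and MRE11 were touched by control peaks that also touched the body of a neighbouring gene, and the assignment rule does not count these.

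The comparison of shTRA2A with shNC asks whether control m6A peaks were seen again when TRA2A was targeted. Of the 26 genes with a control peak, 9 also had an shTRA2A peak, 34.6% (exact 95% interval 17.2 to 55.7%, counting error only), against 29.1% of all 4000 control peak genes. A control peak was overlapped by at least 1 base on the same strand in 6 of the 26, which are ATM, RAD50, TP53BP1, CLSPN, MSH6 and SMC6 (23.1%, against 16.1%). Overlap was read between the outer ends of peaks, so a shared base can lie between the blocks of a peak made of several. By peak, 8 of 67 were overlapped, 11.9% (5.30 to 22.2%), against 9.65% of all control peaks in coding genes. These shares lie near those of all coding genes. Of the 16 shTRA2A peaks, 8 were on a control peak, against 34.6% of all shTRA2A peaks in coding genes. TOPBP1 and TOP2B had an shTRA2A peak without a control peak, 2 of 18 genes, against 3.81% of all coding genes without one. The shTRA2A counts depend on wide peaks: with peaks of 1 block and at most 1000 nt on a width grid of 25 nt, 5 of 25 genes had an shTRA2A peak (20%, against 23.6% of all control peak genes) and 2 control peaks were overlapped.

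The shMETTL3 list, which is longer, had a peak in more of the genes. Most of these peaks were not on a control peak, as over all coding genes. Of the 26 genes, 19 had an shMETTL3 peak, 73.1% (52.2 to 88.4%), against 47.8% of all control peak genes. With a control peak overlapped there were 9, namely RIF1, TP53BP1, CLSPN, BRIP1, BLM, WRN, MSH6, ORC1 and SMC6 (34.6%, 17.2 to 55.7%, against 28.4%). By peak it was 15 of 67, 22.4% (13.1 to 34.2%), against 18.0%. Of the 37 shMETTL3 peaks, 15 were on a control peak, 40.5%, against 33.1%. FANCM, TOPBP1 and TOP2A had an shMETTL3 peak and no control peak, 3 of 18 genes, against 7.64%. Without peaks on the opposite strand of the gene, 18 of 25 control peak genes had an shMETTL3 peak (72%), against 47.4%. This leaves out BRCA1, whose control peaks are all on the opposite strand. With each list limited to its better-scoring 50%, 9 of 15 genes were found (60%), against 41.5% of all control peak genes so limited. The shNC and shMETTL3 lists were also limited to the length of the shTRA2A list. Then 6 of 9 genes were found in shTRA2A (66.7%, against 44.1%) and 5 of 9 in shMETTL3 (55.6%, against 49.3%). Over all coding genes shMETTL3 stayed the higher, and 9 genes are too few to order the lists.

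Over all coding genes, those with more control peaks were found more often in either knockdown list, and replication and repair genes held more of them (median 2, against 1 for all control peak genes). Among genes with 3 or more control peaks, 5 of 11 were found in shTRA2A, 45.5%, against 47.1% of 1035 coding genes. For shMETTL3 it was 9 of 11, 81.8%, against 70.8%. With 1 control peak, 6 of 9 had an shMETTL3 peak, 66.7% (29.9 to 92.5%), against 36.5% of 2039. Each interval for the replication and repair genes is wide. Both comparisons use the same control list, so they are not independent.

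**Figure D2:**
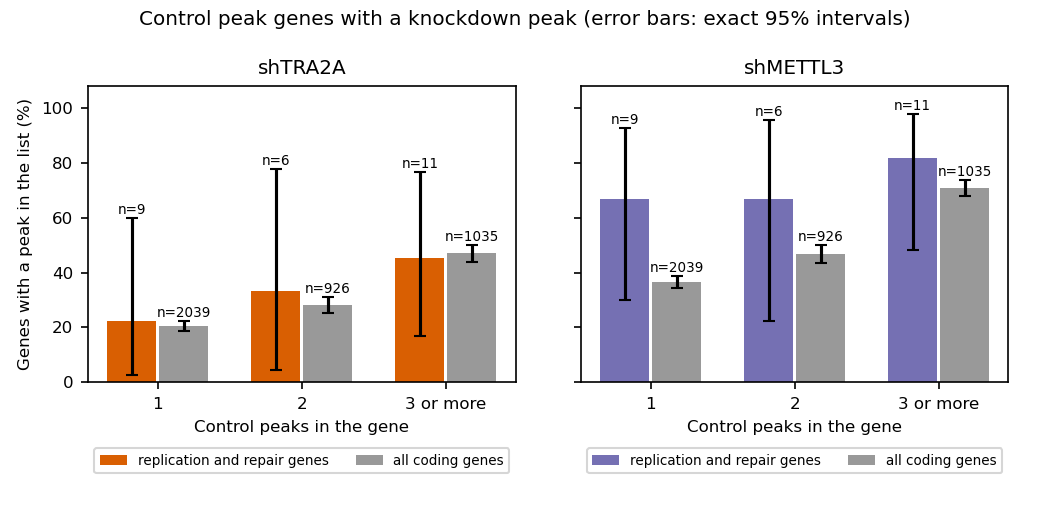
Percent of control peak genes with a peak in shTRA2A (left) or shMETTL3 (right), by the number of control peaks in the gene. Coloured bars are the replication and repair genes with a control peak, and grey bars all coding genes with one. Error bars are exact 95% intervals and n is the number of genes. The shTRA2A bars of both sets lie close together, and the intervals of the replication and repair genes are wide in both panels.

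Peaks in all lists were found in 8 genes: RAD50, RIF1, TP53BP1, CLSPN, WRN, MSH6, MCM10 and SMC6. Over all coding genes 4.06% had a peak in every list, and 8 of the 44 had one. In 6 of the 26 control peak genes, NBN, BRCA2, TIMELESS, POLQ, MCM2 and MCM4, neither knockdown list had a peak, 23.1%, against 43.5% of all control peak genes. These shares were not adjusted for the number of control peaks per gene (median 2, against 1) or for body length.

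Break sensing and checkpoint genes had the most peaks of the role groups, 8, 16 and 28 peaks in shTRA2A, shMETTL3 and shNC over 11 genes. RIF1, a replication timing and end-protection factor, had 1, 4 and 8 peaks. Its control peaks formed a cluster, with 7 of the 8 within 2775 nt (chr2:151463077-151465851, GRCh38, plus strand, 42.8 to 44.9% along the body). The best of them was 151464402-151464826, 425 nt wide, with a score of 41.4 and rank 454 of 9206. No shTRA2A or shMETTL3 peak overlapped this best peak. In shMETTL3, 3 peaks lay at the 5′ side of the cluster (151463102-151463151, 151463202-151463401 with the best score, 12.5, and 151464152-151464226) and the fourth, 151474984-151475133, lay on the distant control peak 151475034-151475083. The 1 shTRA2A peak, 151463727-151463776 (score 8.03), lay inside the cluster, 125 nt from the closest control peak. RIF1 thus had a peak within the cluster in every list, but its shTRA2A peak shared no base with a control peak.

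CLSPN, claspin, the mediator through which ATR activates CHEK1, had 2, 4 and 6 peaks. It gave the best-ranked shTRA2A peak of all 44 genes, chr1:35749757-35751469 (score 17.9, rank 50 of 2736). The shMETTL3 list had nearly the same interval, 35749757-35751494 (score 8.60, rank 2496 of 5433), and both lay on the control peaks 35749682-35751344 (score 39.5) and 35751370-35753832 (score 42.1, rank 433). A second shared site was the control peak 35763296-35764614, which held the shTRA2A peak 35764340-35764389 and the shMETTL3 peak 35764290-35764489. The shMETTL3 list had in addition 35760813-35760887 (score 22.2, rank 202), 300 nt from the control peak 35753858-35760512. Among the 44 genes CLSPN thus had the most control peaks overlapped in shTRA2A, 3, and these same 3 were overlapped in shMETTL3. Of its 6 control peaks 5 were off the 25 nt width grid of the lists or wider than 1000 nt, and a span that wide can include introns. The control peak 35743221-35743508 also lies in the body of the antisense gene CLSPN-AS1.

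TP53BP1, which steers breaks towards end joining, had 1, 3 and 3 peaks. The knockdown lists met different control peaks: shTRA2A overlapped 43432343-43432442 (score 13.4) with chr15:43432393-43432467 (score 7.89), and shMETTL3 overlapped 43456130-43456454 (score 34.4) with 43456355-43456529. The wide control peak 43428093-43432292 (score 31.2) was met by neither, and the best shMETTL3 peak, 43474675-43475646 (score 8.55), was on no control peak. MDC1, the scaffold that binds phosphorylated H2AX, had 0, 2 and 3 peaks, the shMETTL3 peaks lying 375 and 1450 nt from the nearest control peak. Its best peaks were chr6:30713145-30713244 (score 7.52) in shMETTL3 and 30707957-30708006 (score 11) in shNC. All 5 MDC1 peaks touch the body of MDC1-AS1 and lie on the strand of MDC1.

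ATM, the kinase of the break response, had 1, 0 and 2 peaks. Its shTRA2A peak, chr11:108259071-108267265 (8195 nt, score 7.86), began at the same base as the control peak 108259071-108267215 (score 11.6) and ended 50 nt later. The outer ends of this long span thus nearly recurred, and blocks within it were not compared. The other control peak, 108258996-108259045, scored 13.4. ATR, the kinase of the replication checkpoint, had 0, 1 and 1 peaks, and its shMETTL3 peak, chr3:142515475-142519702 (score 8.54), lay 42751 nt from its control peak, 142562454-142562628 (score 11.1). RAD50 had 2, 1 and 2 peaks. The shTRA2A peak chr5:132604922-132608661 (score 9.28) began at the first base of the control peak 132604922-132604971, and the other shTRA2A peak, 132593440-132594598, ended at the base before the shMETTL3 peak 132594599-132594648 (score 11.8). The best control peak, 132587977-132588076 (score 16.6), was met by neither.

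NBN, the third subunit of the RAD50 complex, had 0, 0 and 2 peaks. Its control peak chr8:89953446-89955311 had the best rank of all control peaks of the 44 genes, 396, with a score of 43.8, and the other, 89953371-89953420, had a score of 21.0. NBN was therefore, among the 44 genes, the strongest control signal with no counterpart in either knockdown list. TOPBP1, the activator of ATR, had 1, 1 and 0 peaks, and TIMELESS 0, 0 and 1 (score 12.4).

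**Figure D3:**
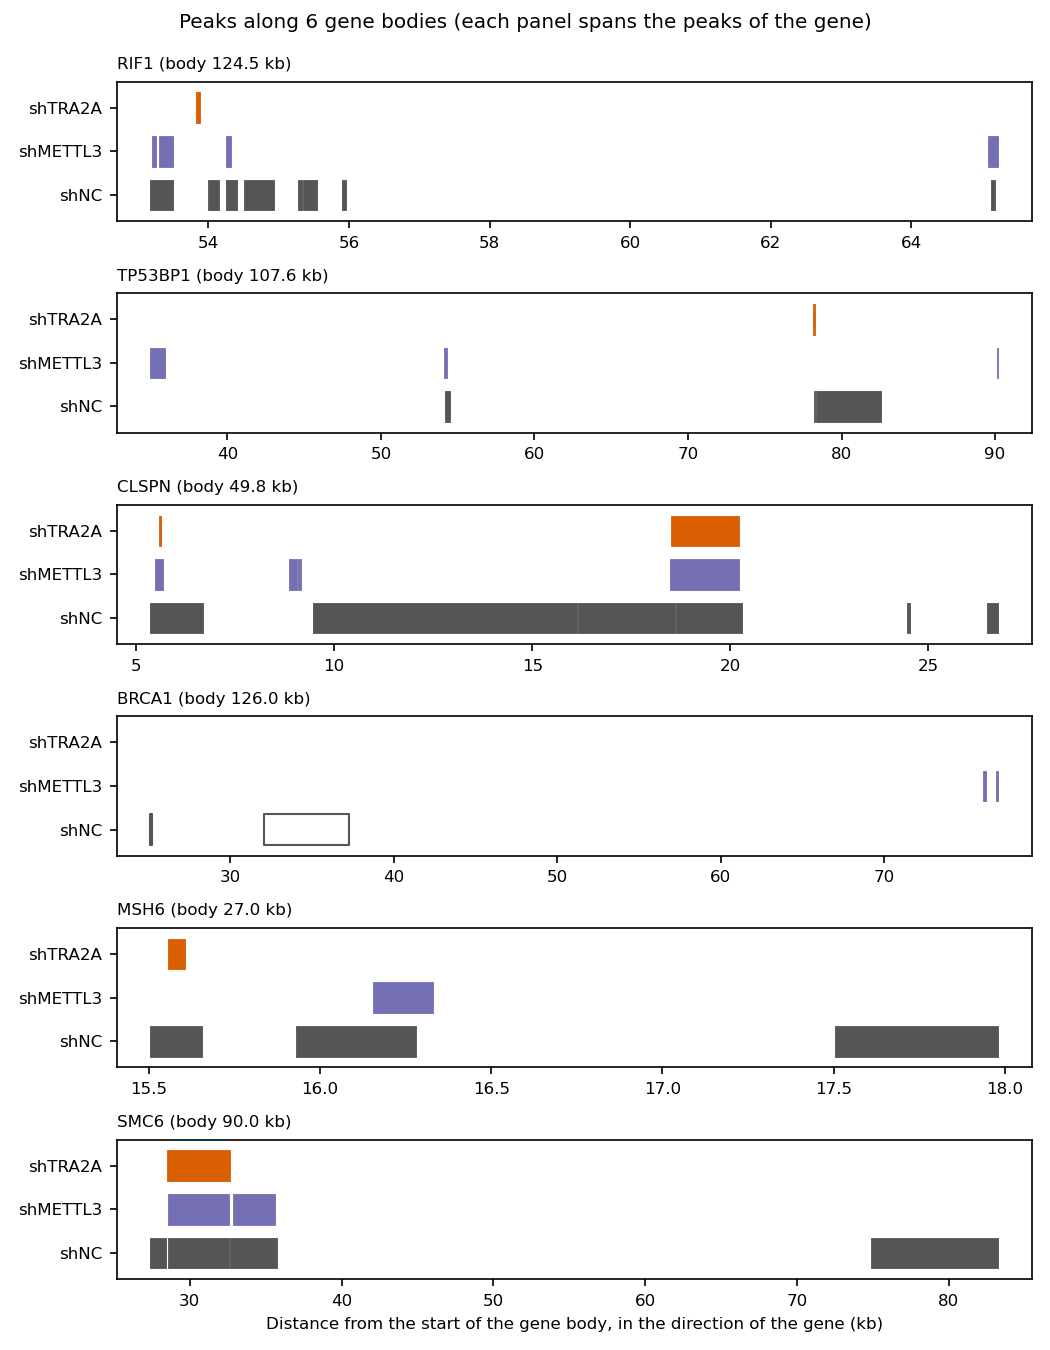
Peaks of RIF1, TP53BP1, CLSPN, BRCA1, MSH6 and SMC6 in the shTRA2A (top), shMETTL3 (middle) and shNC (bottom) lists, against distance in kb from the start of the gene body; each panel spans the peaks of its gene and so differs in scale. Filled boxes are on the strand of the gene, and open boxes, seen in BRCA1, on the other strand. RIF1 and MSH6 show a cluster of control peaks, met in part by the knockdown peaks.

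Recombination, Fanconi anaemia and helicase genes had 3, 11 and 17 peaks in shTRA2A, shMETTL3 and shNC over 12 genes, and all 3 shTRA2A peaks were in WRN. None of the 17 control peaks was overlapped by an shTRA2A peak (0 to 19.5%, against 9.65% of all control peaks), and 3 were by an shMETTL3 peak (17.6%, against 18.0%). BRCA1 had 0, 3 and 2 peaks. Its shMETTL3 peaks, chr17:43093361-43093460, 43094086-43094160 and 43094186-43094260, lay close together on the strand of BRCA1, and the last had a score of 20.1 and rank 263 of 5433. Both control peaks, 43133086-43138253 (score 10.4) and 43145103-43145202, were on the opposite strand and lie in the body of NBR2, a long non-coding gene (43125557-43153671). Counting only peaks on the strand of the gene, BRCA1 had 0 control and 3 shMETTL3 peaks.

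BRCA2, a homologous recombination protein, had 0, 0 and 5 peaks, the most of those of the 44 genes without a peak in the knockdown lists. They lay at 2 places in the body: chr13:32337258-32337332 and 32340933-32341057 at 26.1 and 30.4% of its length, and 3 peaks between 32398216 and 32398565, within 350 nt, at 97.6 to 98.0%. Their scores were 9.22 to 13.4, ranks 4068 to 7809 of 9206, and the best was 32398216-32398265. PALB2, the partner that joins BRCA1 and BRCA2, had 0, 1 and 4 peaks. Of these control peaks 3 lay within 1025 nt (chr16:23635111-23636135, the best 23635911-23636135 with a score of 17.3), and the shMETTL3 peak, 23629869-23629918 (score 6.19), lay 150 nt from the fourth.

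BRIP1, a helicase bound to BRCA1, had 0, 2 and 1 peaks, all near the 3′ end of the body. Its shMETTL3 peak chr17:61683789-61683838 lay inside the control peak 61683739-61684138 (score 12.8) and the other, 61683664-61683713 (score 9.78), 25 nt outside it. BLM, the helicase mutated in Bloom syndrome, had 0, 2 and 1 peaks, of which the shMETTL3 peak chr15:90749824-90749923 was the control peak 90749799-90749898 (score 10.3) moved by 25 nt. The better-scoring shMETTL3 peak of BLM, 90761238-90763063 (score 12), was on no control peak. WRN, the Werner syndrome helicase, had 3, 1 and 1 peaks. Its shMETTL3 peak chr8:31080966-31081115 (score 9.60) lay within the control peak 31080891-31081240 (score 29.1), whereas its 3 shTRA2A peaks, the best of them 31067167-31076236 (score 9.32), were 4654 nt or more away. WRN had the most shTRA2A peaks of the 44 genes, yet none was at the control site.

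SLX4, a scaffold of structure-specific nucleases, had 0, 1 and 3 peaks. The shMETTL3 peak chr16:3608515-3608564 (score 7.74) began at the base after the control peak 3608465-3608514, so it touched that peak without sharing a base. The best SLX4 control peak was 3591072-3591196 (score 10.5). FANCM, a translocase that recognises stalled forks, had 0, 1 and 0 peaks, and its shMETTL3 peak, chr14:45188938-45189012, had a score of 15 and rank 607 of 5433.

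Polymerases and mismatch repair genes had 1, 3 and 9 peaks over 6 genes. MSH6, a mismatch repair protein, had 1, 1 and 3. Its control peaks lay within 2475 nt (chr2:47798650-47801124), with scores of 26.7, 24.97 and 42.9. The shTRA2A peak 47798700-47798749 (score 7.40) lay inside the first and the shMETTL3 peak 47799300-47799474 (score 4.86) on the second, while the third and strongest, 47800650-47801124, was met by neither. REV3L, the catalytic subunit of the translesion polymerase zeta, had 0, 1 and 4 peaks, none of them overlapping between lists, and its shMETTL3 peak, chr6:111372620-111372694 (score 11.3), lay 2775 nt from the nearest control peak. Its best control peak was 111375570-111375719 (score 13.0). REV1, a scaffold of translesion synthesis, had 0, 1 and 1 peaks, chr2:99442353-99449393 in shMETTL3 (score 7.60) and 99438672-99438921 in shNC (score 18.7), 3431 nt apart. POLQ, the polymerase of microhomology-mediated joining, had 0, 0 and 1 (score 11).

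REV3L had the only peak of the 44 genes that reached an annotated promoter window (RefSeq, GRCh38.p14, 250 bases before to 50 after a gene start, given for 39 of the genes). This control peak, chr6:111483222-111483690 on the minus strand, was weak (score 7.86, rank 9103 of 9206) and also touches the antisense gene TRAF3IP2-AS1. It covered 29 bases of the window at the outer start, 111483662-111483961, and 247 of the 300 bases at the inner start, 111483169-111483468. The outer window is shown, 5′ to 3′ on the strand of REV3L, because it shows where the peak begins on that strand. Capitals mark the bases between the outer ends of the peak.
REV3L: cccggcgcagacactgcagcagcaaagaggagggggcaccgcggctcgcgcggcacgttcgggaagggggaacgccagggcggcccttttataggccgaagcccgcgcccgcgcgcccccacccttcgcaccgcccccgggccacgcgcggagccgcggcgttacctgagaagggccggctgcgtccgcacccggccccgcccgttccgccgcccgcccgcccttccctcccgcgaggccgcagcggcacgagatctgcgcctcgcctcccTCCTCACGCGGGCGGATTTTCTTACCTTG
The letters GGAC were searched on both strands. They were absent from the 29 capital bases, and GTCC, their reverse complement and so GGAC on the other strand, stood once in the lower-case part. The inner window held GGAC once, outside the peak, and GTCC at 2 places, 1 of them between the outer ends of the peak. On the strand of REV3L, which is also that of the peak, neither window held GGAC between those ends. Over all 35116 windows 87.4% held GGAC on either strand, as did 40 of the 48 windows of the 39 genes. On the strand of the gene alone it was 66.3% of all windows and 34 of the 48. Sequences of the other peaks were not used here.

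Origin licensing genes, with a median body of 24026 nt, had 1, 4 and 9 peaks over 11 genes, and 1, 3 and 5 of the genes had a peak. ORC1, the largest subunit of the origin recognition complex, had 0, 2 and 2. Its shMETTL3 peak chr1:52393587-52393636 (score 19.6, rank 280 of 5433) lay inside the control peak 52393537-52393686 (score 12.5). The other, 52393687-52393736 (score 10.8), overlapped the control peak 52393712-52396078 (score 10.5). Both control peaks of ORC1 were thus met again in shMETTL3. Of the MCM helicase subunits, MCM2 had 0, 0 and 3 peaks, MCM3 0, 1 and 2, MCM4 0, 0 and 1, and MCM5, MCM6 and MCM7 none. The MCM3 peak in shMETTL3, chr6:52264264-52264313 (score 8.27), lay 75 nt from a control peak, and the best control peak of MCM3 was 52282840-52283346 (score 12.1). The best MCM2 control peak was chr3:127604277-127604648 (score 12.1). Of the others, 127621747-127621871 on the plus strand and 127621756-127621855 on the minus strand cover the same place, and the second is against the strand of MCM2. MCM10, which links MCM to polymerase alpha, had 1, 1 and 1 peaks, and both knockdown peaks lay 26279 nt from the control peak, 13209226-13209325 (chr10, score 9.27).

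Of the genes of chromosome structure and topology, SMC6, a subunit of the SMC5-SMC6 repair complex, had 2, 2 and 4 peaks. Its control peak chr2:17721202-17725271 (score 15.3) was overlapped in shTRA2A by 17721177-17721226 (score 8.48) and 17721252-17725321 and in shMETTL3 by 17721252-17725271, which ends at the same base. The control peak 17718083-17721176 (score 22.0) was overlapped in shMETTL3 alone, by 17718208-17720948 (score 9.21), and the shTRA2A peak 17721177-17721226 began at the base after it. Its partner SMC5 had no peak. All 4 control peaks of SMC6 were wide, 1055 to 8408 nt. The topoisomerases had no control peak. TOP2A, the form of dividing cells, had 0, 1 and 0 peaks, the shMETTL3 peak being chr17:40398859-40398933 (score 8.16). TOP2B had 1, 0 and 0, the shTRA2A peak being chr3:25609343-25609615 (score 8.94).

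**Figure D4:**
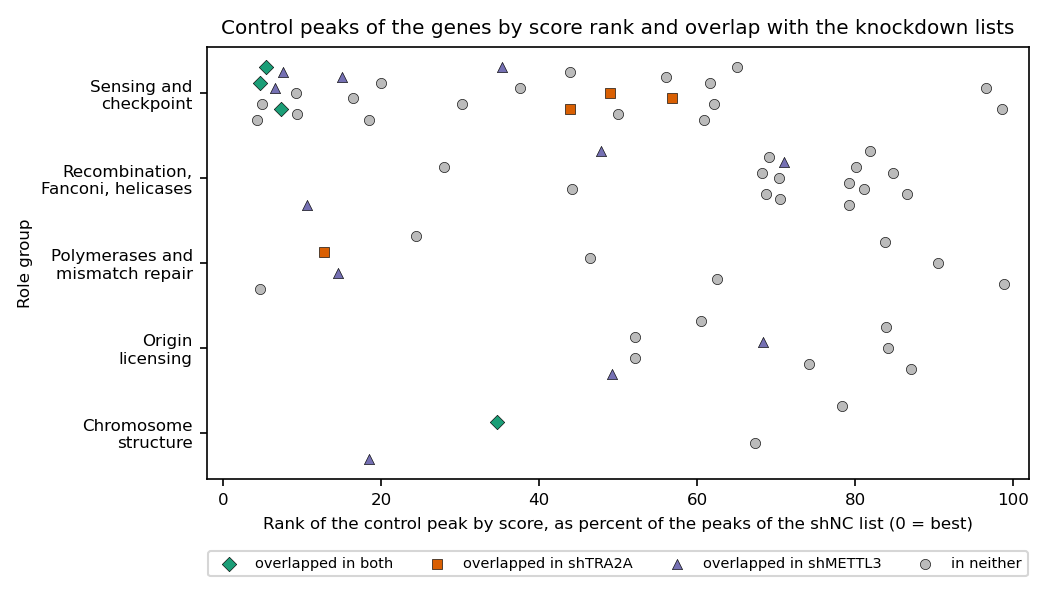
Each of the 67 control peaks of the genes by its score rank in the shNC list (x axis, percent of 9206 peaks, 0 is the best) and role group (y axis, points spread for legibility). Marks show overlap with shTRA2A and shMETTL3 peaks. All 3 peaks of the sensing and checkpoint group that were met in both lists are CLSPN peaks with ranks between 433 and 670.

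Control peaks of these genes were of ordinary strength, with a median score of 12.1, against 12.5 for all control peaks in coding genes. Among the 20% of control peaks with the highest scores the genes had 18 peaks, of which 4 were overlapped in shTRA2A (22.2%, against 28.6% of all) and 9 in shMETTL3 (50%, against 44.8%). Among the lowest 20% they had 13, of which none was overlapped in either list, against 1.03 and 2.78%. By role, the median control score was 15.9 for sensing and checkpoint genes, 10.3 for recombination and Fanconi genes, 13.0 for polymerases and mismatch repair, 10.5 for licensing and 13.0 for chromosome structure.

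The peaks assigned to the genes lay less often near the 3′ ends of the gene bodies than peaks over all coding genes. Of 60 control peaks on the strand of a gene with known direction, 8 were in the last 10% of the body (13.3%), against 33.9% of 6871 control peaks over all coding genes. The median position was 44.2% along the body, against 78.7%. The 8 were 3 of BRCA2 and 1 each of BRIP1, TIMELESS, MCM2, MCM3 and MCM10. In bodies over 75 kb the shares were 12.1% of 33 peaks, against 43.1% of 2875. The knockdown lists gave similar medians, 41.4% in shTRA2A (13 peaks, against 71.1%) and 44.5% in shMETTL3 (36 peaks, against 72.7%). Positions count introns, peaks of 1 gene are not independent, and RIF1 and CLSPN together gave 14 of the 60. Peaks that also touch a neighbouring body and were left out are not among the 60. They include control peaks on the strand of MSH6 (chr2:47807809-47808308) and FANCA (chr16:89740073-89742834), both near the 3′ end of the body.

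**Figure D5:**
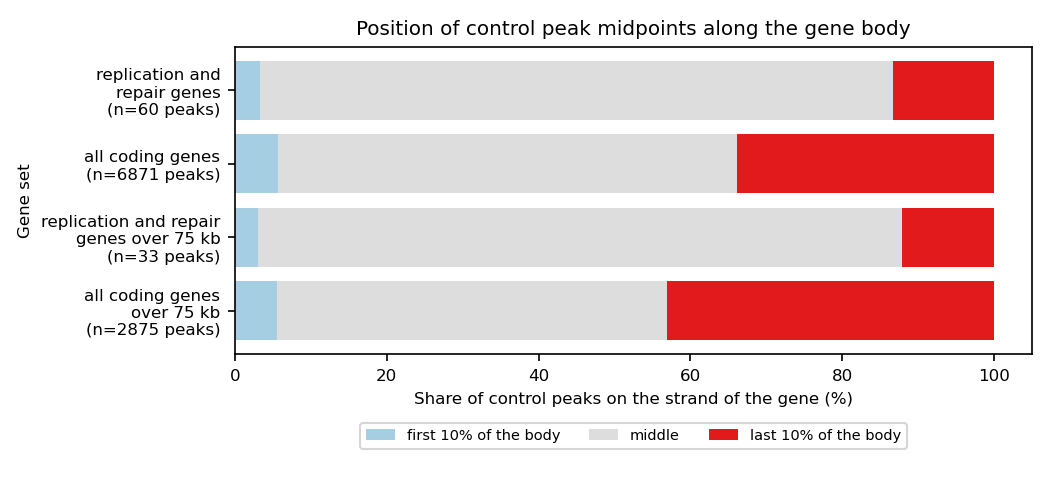
Share of control peaks whose midpoint lies in the first 10%, the middle or the last 10% of the gene body, for the replication and repair genes and all coding genes, of any length and over 75 kb. The last 10% holds 13.3% of the 60 peaks of the replication and repair genes and 33.9% of the 6871 of all coding genes.

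Of 171 further replication and repair genes, 24 had an shTRA2A peak (14.0%), 41 an shMETTL3 peak (24%) and 56 a control peak (32.7%), so they lay between the 44 genes and all coding genes. Of the 56, 17 were found in shTRA2A (30.4%) and 25 in shMETTL3 (44.6%). ATRX, a chromatin remodeller, had 3, 3 and 6 peaks, ERCC5, a nucleotide excision nuclease, 0, 2 and 5, RFC1, the large subunit of the clamp loader, 2, 0 and 5, and XRCC2, a homologous recombination gene, 2, 2 and 5. PAXIP1 had 2, 1 and 5 and ERCC4, another excision nuclease, 1, 0 and 4. DBF4 and ETAA1 also had 4 control peaks, with lower best scores than ERCC4.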

How the data were processed

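Fragmented total RNA of U-251 MG cells was immunoprecipitated for m6A and sequenced in pairs beside its input, per the labels' protocols (6 libraries). The build is GRCh38, and HISAT2 2.2.1, featureCounts 2.0.1 and SAMtools were named, per the submitters' processing notes. The sources used here do not name the peak caller, its cut-offs or the depth of the libraries. The authors deposited BED files of 12 columns, in which column 5 is a score of unknown scale. Another list equals the shTRA2A list and matches no label, so it was not used.

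Coordinates were turned to count from 1. Overlaps, widths, gaps and positions were taken from the outer ends of each peak, so spaces between its blocks were not left out. A peak was given the coding gene body (RefSeq, GRCh38.p14) it touches, and of several the body that holds it and lies inside the others, which assigned 92.1, 92.5 and 92.7% of shTRA2A, shMETTL3 and shNC peaks. Gene direction came from the RefSeq promoter table (39 of 44 genes). Scripts ran in Python 3.11.15 with pandas 2.3.3, numpy 2.4.6 and scipy 1.17.1. Overlaps were checked against bedtools 2.31.1, both for simulated peaks and for the 9206 control peaks, with 0 differing. Intervals (95%, exact Clopper-Pearson) hold counting error and nothing else, and PCR reads are not independent molecules. Genes and lists were chosen with earlier results of these data known. All 44 genes are named, with full values for those with 3 or more control peaks or a knockdown peak, and the 6 further genes with the most control peaks (ties broken by best control score). The strata by body length were chosen after the data were seen. No test between hairpins was made. Alternatives for overlap, strand, score, list length, peak shape, merging and gene assignment were run.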

Additional observations from a re-analysis of the deposited data

Results flagged for a closer look

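Some peaks touch the body of a replication or repair gene but were assigned elsewhere or to no gene, because they also touch another coding body. There were 0 such peaks in shTRA2A, 7 in shMETTL3 and 8 in shNC, and they were noted because they hold signal outside the counts above. The strongest lay where the bodies of MSH6 and FBXO11 meet. In shNC they were chr2:47807809-47808308 on the plus strand (score 43.3) and 47807802-47808382 on the minus strand (score 44.3), and shMETTL3 had 4 peaks there, 2 on each strand. FANCI and POLG shared a pair of control peaks on opposite strands (scores 18.2 and 16.4) and a pair in shMETTL3 (7.65 and 7.94). The other control peaks touched FANCA with ZNF276, TP53BP1 with TUBGCP4, and MRE11 with ANKRD49, and the other shMETTL3 peak touched RIF1 with NEB.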

How the results depend on the processing

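Of 72 counts recomputed with another choice of processing, 46 stayed within 1.5 times the value reported above and 26 did not. Limiting the lists by score, length or peak shape leaves fewer peaks to count, whereas the midpoint rule keeps them all, and no other cause was tested. With the better-scoring 50% of each list, 6, 14 and 15 genes had an shTRA2A, shMETTL3 and shNC peak, 5 and 9 of the 15 had an shTRA2A and an shMETTL3 peak, 5 had both, 5 and 7 control peaks were overlapped, and 4 and 7 knockdown peaks were on a control peak. With the best 2736 peaks of every list, 14 genes had an shMETTL3 and 9 a control peak, 6 and 5 of the 9 were found in shTRA2A and shMETTL3, 4 and 5 control peaks were overlapped, and 3 and 5 knockdown peaks were on one. With regular peaks alone (1 block, a multiple of 25 nt, at most 1000 nt), 7 genes had an shTRA2A peak, 5 of them with a control peak and 5 with an shMETTL3 peak, 2 and 9 control peaks were overlapped, and 2 shTRA2A peaks were on one. With midpoints within 100 nt in place of shared bases, 5 and 9 control peaks were found and 5 shTRA2A peaks were on one. Sharing 50% of the shorter peak, ignoring strand, merging peaks within 100 nt, counting every gene body touched and keeping only peaks on the strand of the gene moved no count past 1.5 times. No paired analysis was possible because each hairpin has 1 peak list and no test was made. Read depth, unknown here, limits which peaks could be called.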

Other observations

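In some genes both knockdown lists had a peak at the same place where the control list had none. These were picked out after their values were seen, and no explanation was tested. In MCM10 the shTRA2A peak chr10:13180597-13182946 (score 7.12) and the shMETTL3 peak 13180522-13182946 (score 10.4) end at the same base, and the control peak 13209226-13209325 lies elsewhere. In TOPBP1 the shTRA2A peak chr3:133617182-133617256 (score 7.68) and the shMETTL3 peak 133616898-133617231 (score 7.18) overlap, and there was no control peak. The MCM10 peaks are 2350 nt (shTRA2A) and 2425 nt (shMETTL3) wide.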
